A study of Sus scrofa with 3 samples.

Results

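The S100 calcium-binding protein family was followed in visceral adipose tissue (VAT) of miniature pigs on a diet rich in fat and cholesterol (HFC). Of 10 S100 genes named for the comparison, 6 were found by symbol among the 22826 mRNA genes of the processed values. These were the neutrophil members S100A8, S100A9 and S100A12 and the widely expressed members S100A10, S100A11 and S100A13. S100A1, S100A4, S100A6 and S100B had no entry under their symbols. The genes were named with their levels in these libraries already known, so all values below are a description.

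All pigs were male Chinese Wuzhishan miniature pigs of 6 to 7 months at the start, and their VAT was retroperitoneal fat taken after 12 weeks of HFC diet. IM pigs were intact and had skin incisions only. CM pigs were castrated, and CMT pigs were castrated and injected weekly with testosterone propionate at 10 mg/kg body weight. RNA of the pigs in each group was pooled in equal amounts into 1 library. The pool held 4 to 6 pigs by the labels and 4 by the study's methods. From these libraries no p-value can be given, and they do not show the spread between pigs. Reads recovered from the values numbered 16611931, 15561124 and 15106608 over all genes of IM, CM and CMT, of which 9262, 12885 and 9475 lay on the 6 members. Levels are given in UQRPKM, reads per kilobase of gene after scaling each library to its upper quartile, and can be compared between genes as well as between libraries. The markers of the labelled tissue were present. All 8 listed adipocyte genes were abundant in every library, with ADIPOQ, the gene of adiponectin, between 63873 and 74928 UQRPKM. Values given as 3 numbers in a row are always in the order IM, CM and CMT.

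S100 proteins are small proteins with paired EF-hand motifs that bind calcium and then dock onto other proteins. S100A8 and S100A9 form the heterodimer calprotectin, which fills the cytoplasm of neutrophils and is also made by monocytes. When released, calprotectin and S100A12 act as alarm signals on receptors such as TLR4 and AGER (RAGE). S100A10 and S100A11 are partners of annexins at membranes, and S100A13 takes part in the release of FGF1 and IL1A from cells. In adipose tissue, the neutrophil members are known as markers of infiltrating myeloid cells, while S100A10 and S100A11 are present in most cell types. In RNA from whole tissue, more cells of a type and more RNA per cell cannot be told apart.

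The neutrophil members were lowest in IM, highest in CM and between them in CMT. S100A8 had 90.4, 1272 and 193 UQRPKM, from 52, 697 and 109 reads. S100A9 had 85.6, 1157 and 229 UQRPKM, from 83, 1070 and 218 reads. S100A12, also called calgranulin C, had 323, 2449 and 537 UQRPKM, from 174, 1259 and 284 reads. The rising order IM, CMT, CM was shared by the 3 genes, and S100A12 was the most abundant of them in every library. Summed over the 3 genes, the level was 499, 4878 and 960.1 UQRPKM. Among all mRNA genes ordered by UQRPKM, S100A8 stood at places 6102, 691 and 3639 from the top and S100A12 at places 2544, 374 and 1538.

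The qRT-PCR of the study used 1 primer pair on an S100 gene. It is shown because it gives the stretch on which S100A9 was also assayed, though no qRT-PCR values were analysed here. By that assay, the study reports S100A9 as increased in CM pigs and decreased in CMT pigs, like its RNA-Seq values. Both primers are written 5′ to 3′ as the study lists them.
S100A9 first primer: caaatgtcgcagatggaatg
S100A9 second primer: ggatgtggtttatggctttctc

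Of the widely expressed members, S100A10 was the most abundant. It had 6123, 7914 and 6228 UQRPKM, from 7308, 9001 and 7283 reads. S100A13 had 607, 816 and 650.4 UQRPKM, from 341, 437 and 358 reads. Both were slightly higher in CM than in the other libraries. S100A11 went the other way. It had 1764, 598 and 1689 UQRPKM, from 1304, 421 and 1223 reads. In IM and CMT the order of the 6 members from the top was S100A10, S100A11, S100A13, S100A12 and then the S100A8 and S100A9 pair, whose order differed between these libraries within counting error. In CM it was S100A10, S100A12, S100A8, S100A9, S100A13 and S100A11, so that all neutrophil members stood above S100A11 and S100A13 in that library only.

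**Figure D1:**
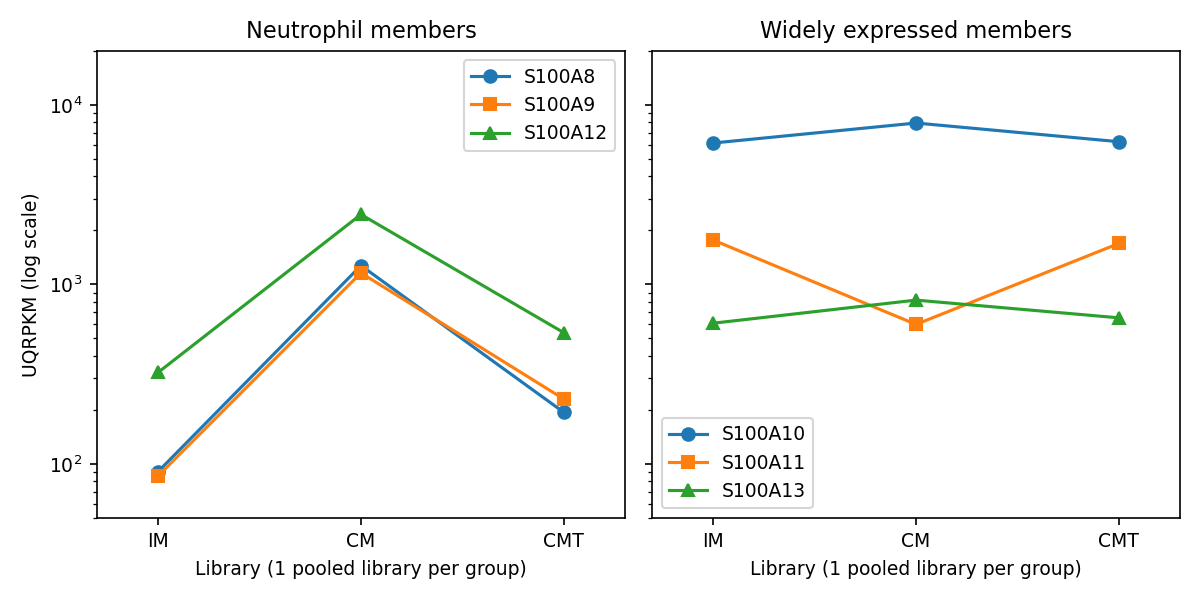
Level of the 6 S100 members in UQRPKM on a log scale (y axis) in the IM, CM and CMT libraries (x axis), 1 point per pooled library, with no replicates and no error bars. The neutrophil members peak in CM, at 1157 to 2449 UQRPKM, whereas S100A11 drops to 598 in CM and S100A10 stays between 6123 and 7914.

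The first comparison, CM versus IM, addresses the effect of castration under the HFC diet. A call required a fold of at least 1.5 and levels of 1 UQRPKM or higher in each library compared, the size limits of the study's criteria without their test. By this rule 3 members rose in CM, 1 fell and 2 were not called, and 18.8% of the 14123 mRNA genes tested were called (8.38% as higher and 10.4% as lower). With scaling by the median ratio between libraries this balance turned, from 1184 higher and 1473 lower genes to 1357 and 1278. S100A8 rose 14.1-fold, with a log2 ratio of 3.81 and a 95% counting interval from 3.41 to 4.25. S100A9 rose 13.5-fold, with a log2 ratio of 3.76 (interval 3.43 to 4.10). S100A12 rose 7.59-fold, with a log2 ratio of 2.92 (interval 2.69 to 3.16). Ordered by their log2 ratio among the 8282 tested genes that reached 50 UQRPKM in one of these libraries, they stood at places 20, 21 and 27 from the top. S100A11 was 2.95-fold lower in CM, with a log2 ratio of -1.56 (interval -1.72 to -1.40), and stood at place 28 from the bottom of the same order. S100A10 and S100A13 had log2 ratios of 0.37 (interval 0.33 to 0.41) and 0.43 (interval 0.22 to 0.64), under the limit for a call. The intervals come from the reads on each gene and cover counting error only, not the spread between pigs.

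The rise of S100A12 was smaller than those of S100A8 and S100A9. The log2 ratio of S100A8 exceeded that of S100A12 by 0.89 (interval 0.42 to 1.36), and that of S100A9 exceeded it by 0.83 (interval 0.44 to 1.23). S100A8 and S100A9, whose proteins pair with each other, differed by 0.06 with an interval from -0.46 to 0.57. Within a library the level of S100A8 was 1.06 times that of S100A9 in IM, 1.10 times in CM and 0.843 times in CMT, and the counting intervals of all 3 ratios held 1. The level of S100A12 was 3.77 times that of S100A9 in IM (interval 2.89 to 4.96), 2.12 times in CM (1.95 to 2.298) and 2.34 times in CMT (1.96 to 2.81). The ratio in IM thus lay above those in the other libraries by more than counting error.

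In CMT versus CM, which addresses testosterone replacement after castration, the same 4 members passed the limits in the opposite direction. S100A8, S100A9 and S100A12 fell and S100A11 rose, whereas S100A10 and S100A13 were not called. In this comparison 19.5% of the 14098 mRNA genes tested were called, 9.53% as higher and 9.97% as lower. The CM library is part of both comparisons, so this reversal is not independent of the first result. S100A8 was 6.57-fold lower in CMT than in CM, with a log2 ratio of -2.72 (interval -3.02 to -2.42). S100A9 was 5.05-fold lower, with a log2 ratio of -2.34 (interval -2.55 to -2.12). S100A12 was 4.56-fold lower, with a log2 ratio of -2.19 (interval -2.38 to -2.00). S100A11 was 2.83-fold higher, with a log2 ratio of 1.498 (interval 1.34 to 1.66). S100A10 (log2 ratio -0.35) and S100A13 (-0.33) were slightly lower, and both counting intervals lay below 0. The fall of S100A8 exceeded that of S100A12 by 0.53 on the log2 scale (interval of the difference -0.87 to -0.18) and that of S100A9 by 0.38 (-0.74 to -0.02), while S100A9 and S100A12 differed by -0.15 (interval -0.43 to 0.13).

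CMT versus IM compares both groups exposed to testosterone. The neutrophil members were still called higher in CMT, while none of the widely expressed members was called. Of the 14151 mRNA genes tested, 20.7% were called, 8.81% as higher and 11.9% as lower. Of the called genes 42.4% were higher, against 53.1% with scaling by the median ratio. S100A9 was 2.68-fold higher in CMT than in IM, with a log2 ratio of 1.42 (interval 1.05 to 1.81). S100A8 was 2.14-fold higher (log2 ratio 1.10, interval 0.61 to 1.60) and S100A12 1.67-fold higher (log2 ratio 0.74, interval 0.46 to 1.02). S100A12 was therefore close to the 1.5-fold limit, which its interval included, and at a fold of 2 only S100A8 and S100A9 were called. The log2 ratios of S100A10, S100A11 and S100A13 were 0.02, -0.06 and 0.10, and their intervals, the widest from -0.12 to 0.32, all included 0. With that other scaling, the log2 ratio of S100A11 became 0.02 and the one of S100A10 became 0.11.

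Set side by side, the median log2 ratio was 3.76 for the 3 neutrophil members and 0.37 for the 3 widely expressed members in CM versus IM, a difference of 3.39. In CMT versus CM the medians were -2.34 and -0.33, a difference of -2.01, and in CMT versus IM they were 1.10 and 0.02, a difference of 1.07. The median over all mRNA genes tested was -0.06, -0.02 and -0.08 in these comparisons. The widely expressed members did not move as a block, because the log2 ratio of S100A11 in CM versus IM lay 1.93 below that of S100A10 (interval of the difference -2.10 to -1.77). The level of S100A11 was 0.288 times that of S100A10 in IM, 0.0755 times in CM and 0.271 times in CMT. S100A13 and S100A10 kept a close ratio, 0.0991 in IM, 0.103 in CM and 0.104 in CMT, with overlapping counting intervals.

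**Figure D2:**
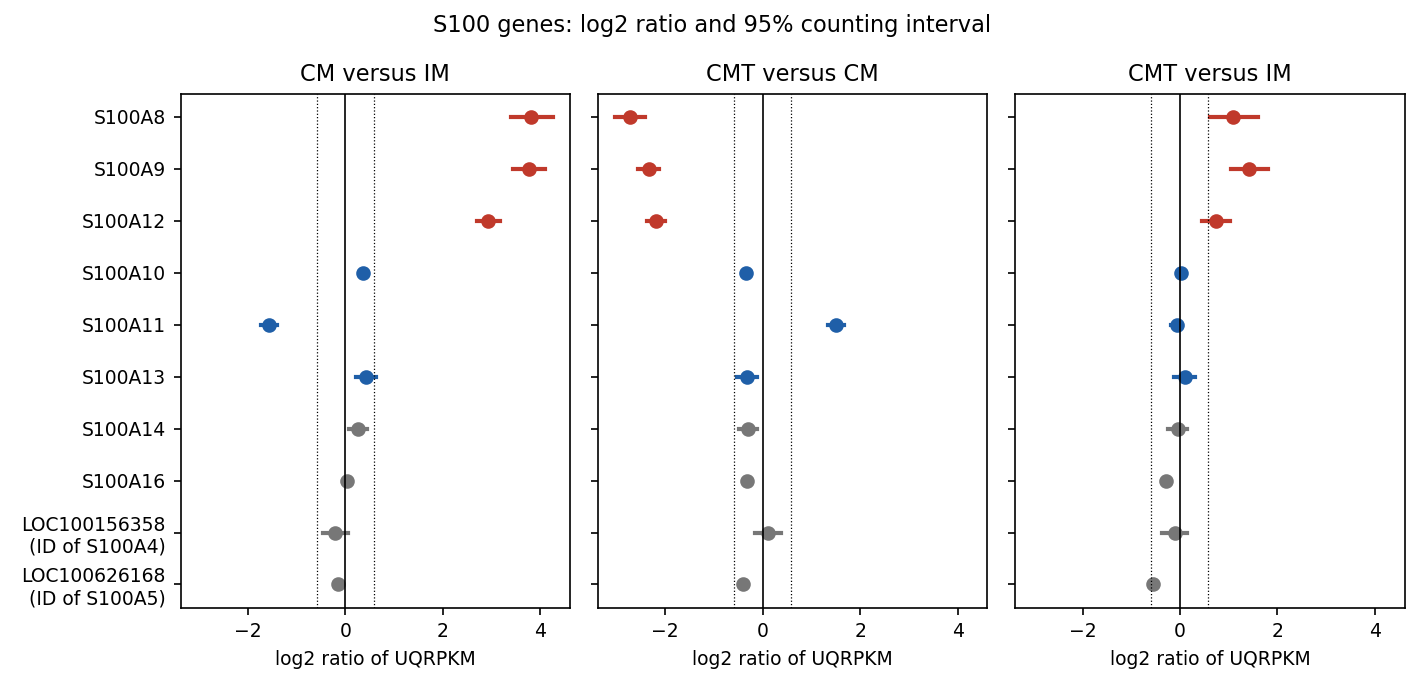
Log2 ratio of UQRPKM (x axis) of the 6 members and of 4 further S100 entries (y axis) in the 3 comparisons, with bars for the 95% counting interval and dotted lines at a fold of 1.5 in either direction. S100A8, S100A9 and S100A12 lie far to the right in CM versus IM, at 2.92 to 3.81, and S100A11 lies to the left at -1.56, while the other entries stay between the dotted lines.

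Further S100 genes were read in the same values. S100A16, which is present in many tissues, had 930.5, 952 and 761 UQRPKM. S100A14, known mainly from epithelia, had 290.3, 348 and 281 UQRPKM. Neither was called in any comparison. S100Z had 1, 1 and 4 reads, too few to show a difference although its fold passed the limit in both comparisons with CMT. S100A7 and S100G were listed at 0 in every library. A search by NCBI gene ID in the RefSeq gene table of the later assembly Sscrofa11.1 gave entries for 5 more family genes that carry LOC names in the processed values. The entry with the ID of S100A4, a gene of fibroblasts and leukocytes, had 221, 190.5 and 205 UQRPKM and was not called. The entry with the ID of S100B, known from Schwann cells and adipocytes, was listed at 0 in every library. The entry with the ID of S100A5 was the most abundant S100 entry, at 23180, 20727 and 15730.4 UQRPKM. Its identity rests on the gene ID alone. S100A6 is the next gene in the Sscrofa11.1 table and has no entry here, and whether reads of S100A6 were counted on this entry was not tested. Entries with the IDs of S100A2 and S100A3 had 1 and 2 reads in IM and 0 in the other libraries, below the 3 reads that a count of 0 allows.

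The other genes of neutrophils did not rise with S100A8, S100A9 and S100A12 to a like extent. Of 27 names on a list of neutrophil genes, 15 had an entry, and 6 of them reached 1 UQRPKM in both CM and IM. Of these 6, 2 rose in CM, 1 fell and 3 were not called, beside 18.8% of all mRNA genes called, with a median log2 ratio of 0.28. LCN2, the gene of lipocalin 2, which binds bacterial siderophores, rose from 309 UQRPKM in IM to 770.4 in CM and stood at 467 in CMT. BPI, a granule protein against bacteria, had 16.5, 19.2 and 12.8 UQRPKM. MMP9, a gelatinase of neutrophil granules, fell from 16.9 UQRPKM in IM to 5.81 in CM and stood at 12.5 in CMT. CXCR2, the chemokine receptor of mature neutrophils, was chosen after its values were seen and had 5.08, 4.69 and 4.35 UQRPKM from 25, 22 and 21 reads. CSF3R, CD177, NPG1, NPG4 and PMAP-23 were listed at 0 in every library. A listing at 0 can be a failed estimate, since the muscle genes CKM, MB and TNNT3 were listed at 0 in CMT although ACTA1 reached 3589 UQRPKM there. The summed level of the neutrophil list was 406, 904 and 599 UQRPKM. Without LCN2, which the study also selected on these libraries, it was 96.6, 134 and 132.

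Genes of monocytes and macrophages also moved less than the neutrophil S100 members. Of 14 measured genes on that list, 3 rose in CM versus IM and 0 fell. Over all mRNA genes, 8.38% were called higher and 10.4% lower. The median log2 ratio was 0.20. The rising genes were EMR1 and MARCO, which mark macrophages, and LOC100520753, which the study calls CD68 and the gene table does not name. EMR1 and LOC100520753 were also selected by the study on these libraries, so they are not independent of them. The most abundant members, the complement genes C1QC and C1QA and the signalling adaptor gene FCER1G, had log2 ratios of -0.30, -0.43 and 0.22. Between CM and CMT 0 of the 14 measured genes rose and 4 fell (EMR1, MARCO, ITGAM and LOC100520753). The shares called among all mRNA genes there were 9.53% as higher and 9.97% as lower. The summed level was 9647, 8794 and 8034 UQRPKM.

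Marker lists of other cell types moved between the libraries as well. By the call rule, 5 of 6 measured hepatocyte genes rose in CM versus IM and 0 fell. Over all mRNA genes, 8.38% were called higher and 10.4% lower. Of 11 listed hepatocyte genes, 10 were at most 10 UQRPKM in IM and in CMT and above 10 in CM. The share of all mRNA genes within these other limits was not counted. ALB, the gene of serum albumin, had 2.61, 2910.1 and 4.00 UQRPKM. APOA1 was the exception, at 2539, 2339 and 1714 UQRPKM. The summed level of the hepatocyte list was 2557, 9435 and 1737 UQRPKM, and without APOA1 17.9, 7097 and 22.4. The neutrophil S100 members and these hepatocyte genes were thus highest in the same library, and the part of the one in the other was not tested. Erythroid genes did not rise in CM. HBB, a globin gene that marks blood, had 4534, 4193 and 2331 UQRPKM, and the summed erythroid list was 4631, 4281 and 2385. Skeletal muscle genes had sums of 102, 85.8 and 7048 UQRPKM, so muscle RNA was high in CMT. Mesothelial and epithelial genes had sums of 178, 173 and 431. Of 4 measured genes, 3 (MSLN, UPK3B and KRT8) were higher in CM than in IM, beside 8.38% of all mRNA genes. KRT14 and KRT5 were below 2 UQRPKM outside IM. In CMT versus IM, 3 of 6 measured genes of this list were higher and 3 (KRT18, KRT14 and KRT5) were lower. Over all mRNA genes, 8.81% were called higher and 11.9% lower there. KRT8 alone had 51.2, 102 and 307 UQRPKM. The lists of adipocytes (149675, 141883 and 119565), fibroblasts (73844, 71176 and 69693), endothelium (8648, 7702 and 8315), lymphocytes (711, 646 and 633) and Schwann cells (145, 127 and 156) had summed levels that differed less.

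**Figure D3:**
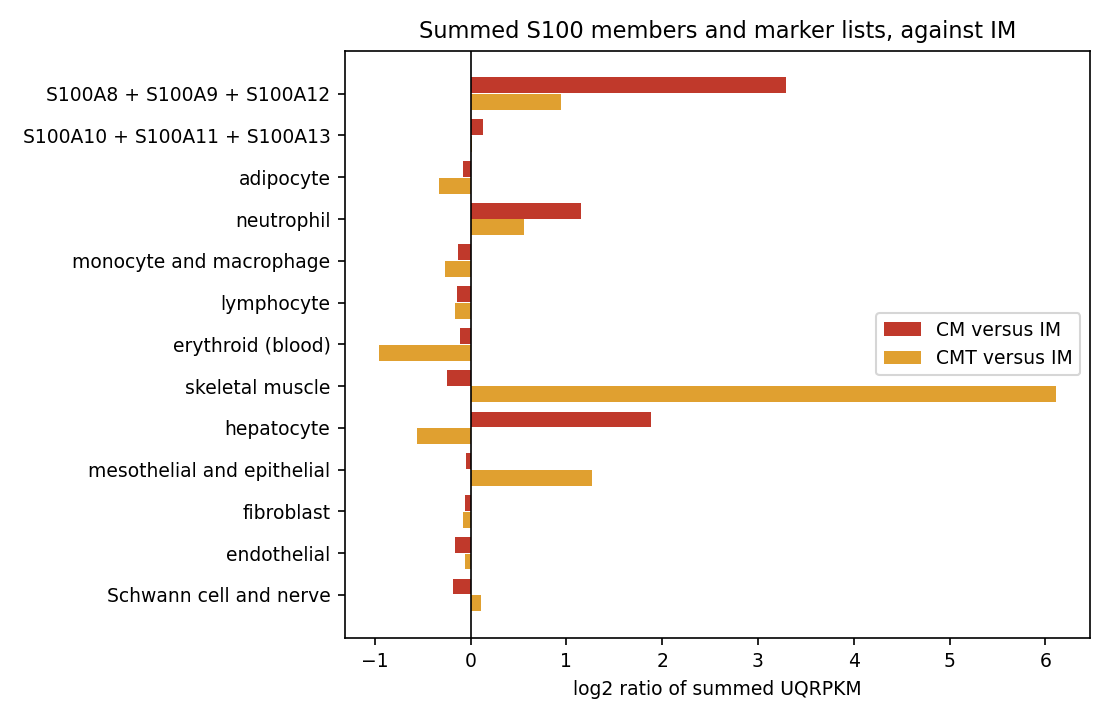
Log2 ratio of summed UQRPKM (x axis) of the neutrophil S100 members, the widely expressed S100 members and 11 marker lists (y axis), with red bars for CM versus IM and orange bars for CMT versus IM, 1 pooled library per group and no error bars. In CM the sums of the neutrophil S100 members and of the hepatocyte and neutrophil lists are higher than in IM. In CMT versus IM the skeletal muscle sum has the largest log2 ratio, 6.11. The mesothelial and epithelial list (1.27), the neutrophil list (0.56) and the neutrophil S100 members (a fold of 1.93) are also higher in CMT. The hepatocyte bar is held down by APOA1, without which that sum goes from 17.9 UQRPKM in IM to 7097 in CM.

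Receptors for secreted S100 proteins were examined next. Of 7 measured genes, 2 rose in CM versus IM, 0 fell and 5 were not called, beside 18.8% of all mRNA genes called (8.38% as higher). AGER had 2.68, 15.0 and 0.910 UQRPKM, from 6, 32 and 2 reads. LY96, which forms the endotoxin receptor with TLR4, had 97.0, 150 and 175 UQRPKM. TLR4 itself had 68.7, 62.8 and 52.1, and CD14, its co-receptor, had 390.0, 395 and 339. CD36, a fatty acid receptor that also binds S100A8 and S100A9 complexes, had 4275, 5289 and 4756. Thus AGER peaked in CM like the neutrophil S100 members, at few reads, and TLR4, CD14 and CD36 were not called in any comparison.

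Among binding partners within the cell, 14 genes were measured, of which 1 rose and 1 fell in CM versus IM, no larger a share than the 18.8% of all mRNA genes called. ANXA2, whose protein forms a complex with S100A10, had 28270, 33589 and 21046 UQRPKM. It was not called in CM versus IM (log2 ratio 0.25) and was lower in CMT than in CM (log2 ratio -0.67). ANXA1, a partner of S100A11, rose from 2930 UQRPKM in IM to 5162 in CM and had 3511 in CMT. S100A11 and ANXA1 therefore moved in opposite directions between IM and CM, at -1.56 and 0.82 on the log2 scale. ANXA5 and AHNAK, a scaffold bound by S100A10 with ANXA2, were not called in any comparison. IL1A, whose release involves S100A13, fell from 13.6 UQRPKM in IM to 8.11 in CM and then 4.13 in CMT, from 37, 21 and 11 reads, and its counting interval in CM versus IM included 0.

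A list of acute phase and myeloid inflammatory genes was mixed. In CM versus IM 4 of 12 measured genes rose, 4 fell and 4 were not called (8.38% and 10.4% of all mRNA genes rose and fell), with a median log2 ratio of 0.16. HP, the gene of haptoglobin, rose from 12.6 UQRPKM in IM to 1226 in CM and had 16.3 in CMT. On the log2 scale the rise of HP was 6.61. The median of the measured hepatocyte genes was 7.01, and LCN2 rose by 1.32. Whether the HP reads in CM belong with the hepatocyte genes was not tested. LCN2, given above, and the NADPH oxidase genes NCF1 and GP91-PHOX also rose (all 3 were also selected by the study on these libraries), the latter pair with log2 ratios of 1.17 and 0.62. The cytokine genes TNF and IL1B fell in CM, with log2 ratios of -0.95 and -2.05, as did PTX3 and CHI3L1. IL1B rested on 26, 6 and 21 reads, with a counting interval from -3.62 to -0.73 in CM versus IM. CHI3L1 had 35, 18 and 20 reads and an interval from -1.80 to -0.03. CCL2, the gene of a monocyte chemokine, had 189, 216 and 159 UQRPKM and was not called. In CMT versus CM 1 of 12 measured genes rose and 4 fell, the falling genes being HP, LCN2, NCF1 and GP91-PHOX. Over all mRNA genes, 9.53% rose and 9.97% fell in that comparison.

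The genes most like each member across the 3 libraries were found among 8449 mRNA genes that reached 1 UQRPKM in every library and 50 in one of them. Likeness was the distance between the pairs of log2 ratios in CM versus IM and CMT versus IM, which share the IM library. ASGR1, an asialoglycoprotein receptor gene of hepatocytes, was nearest to both S100A8 (distance 0.37) and S100A9 (0.45), with 5.01, 54.7 and 10.7 UQRPKM. The next genes were further away. For S100A8 they were LOC100627710 (0.81), LOC100737894 (1.01) and ITIH1 (1.29). For S100A9 they were LOC100627710 (0.95), LOC100737894 (0.96) and CFB (1.31), the gene of complement factor B. LOC100627710 had only 2, 47 and 4 reads. For S100A12 the nearest genes were LOC100737894 (0.498), LOC100520761, which has the gene ID of the complement regulator C4BPA, ADAMTS18 and ASGR1. All of these genes but CFB reached 50 UQRPKM in CM only, where they were high. CFB had 15.9, 166 and 102 UQRPKM and so reached 50 only in CM and CMT, where it was high. The search thus admitted all of them through the pattern itself. The genes nearest to S100A11 were LOC100738785 (0.11), LOC100739326, KDM4B and MRPS23. LOC100739326 had 2383, 815 and 2484 UQRPKM.

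**Figure D4:**
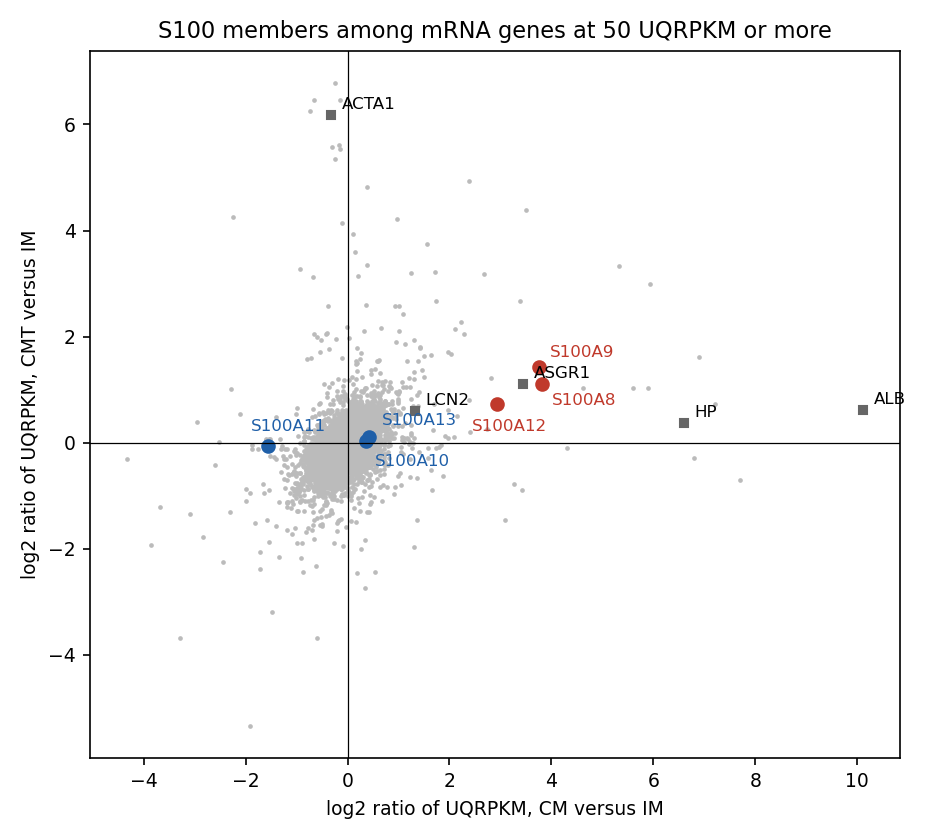
Log2 ratio of UQRPKM in CM versus IM (x axis) and in CMT versus IM (y axis) for mRNA genes that reached 1 UQRPKM in every library and 50 in one of them (grey points), with neutrophil S100 members in red, widely expressed members in blue and 5 other genes as squares. S100A8, S100A9 and S100A12 lie apart from the bulk of genes at 2.92 to 3.81 on the x axis, S100A10 and S100A13 lie within the bulk, and S100A11 lies at -1.56 close to the horizontal line.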

How the data were processed

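RNA-Seq values of 3 VAT libraries (IM, CM and CMT, 1 pooled library per group) were analysed. The authors filtered single-end Ion Proton reads, mapped them to Sscrofa 10.2 with MapSplice and deposited RPKM values scaled by the upper quartile (UQRPKM). The counting tool, annotation and treatment of reads with several positions are not given in the sources used here, so S100 genes with similar copies are uncertain. The gene table at hand describes Sscrofa11.1, so its coordinates served only to order neighbouring genes. Their order in Sscrofa 10.2 was not checked.

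Groups were taken from the sample titles. Values were compared as log2 ratios without a pseudocount. A value equals reads divided by gene length and upper quartile, times a constant. Relative upper quartiles of 149, 142 and 146 came from the most frequent ratios of low values, and the shortest length (up to 120000 bases) that gave whole reads within a relative tolerance of 2e-08 in every library was used. It was found for 20838 of 20838 genes above 0. Reads can be too low by a common factor, which widens intervals. Intervals of log2 ratios are exact Clopper-Pearson at 95%, and those of differences between members are Woolf intervals. Both cover counting error only. They can be too narrow even for that, since amplified reads are not independent molecules. Read recovery, calls and intervals were tested on simulated data. Computation used Python 3.11.15, numpy 2.4.6, scipy 1.17.1 and pandas 2.3.3.

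The members and gene lists were chosen with earlier results of these data known. Of 7 widely expressed genes named, 3 had an entry by symbol. Named genes were all S100 entries, the 4 genes nearest to S100A8, S100A9, S100A12 and S100A11, and some of the most abundant genes of the lists. FGFR1 of the receptor list (958, 852 and 1096 UQRPKM) was left out above. So was ANXA6 of the binding partners (1825, 2254 and 1640 UQRPKM). Neither was called in any comparison, and less abundant genes of their lists were named. Other genes of these lists, such as those behind counts of 5 or fewer, were named after their values were seen. The values of 1 gene of the neutrophil list are not reported here. Dose, diet length and age are from the study's methods. Protein and promoter sequences were not used here.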

Additional observations from a re-analysis of the deposited data

How the results depend on the processing

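The count of called S100 members stayed within 1.5 times its value in all 27 alternatives tried over the 3 comparisons. These were scaling by total UQRPKM or by the median ratio, a pseudocount of 1 and other minimums. A fold of 2, an interval that excludes 0 and wider sets of genes were also used. The set of all symbols starting with S100 also held S100PBP, the gene of an S100P binding protein. Its added call in both comparisons with CMT was that of S100Z, at few reads. A fold of 2 left 2 of 3 calls in CMT versus IM, without S100A12. None of these alternatives stands in for replicates. With means in place of medians, the difference between neutrophil and widely expressed members became 3.75 (CM versus IM) and -2.69 (CMT versus CM), since the mean takes in S100A11. Adding S100A4 by gene ID, chosen after seeing the data, gave 3.68, -2.22 and 1.12 in the 3 comparisons. Of 54 log2 ratios of members under other scalings or a pseudocount, 2 left their counting interval, both of S100A10 with median ratio scaling (0.43 for CM and 0.11 for CMT, each against IM), and 1 changed sign, that of S100A11 in CMT versus IM.

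The background depended more on the limits. In the 3 comparisons, in the order of the report, a minimum of 10 UQRPKM gave 1181, 1235 and 1423 called genes. A fold of 2 gave 1139, 1225 and 1162. An interval that excludes 0, added after seeing the data, gave 1656, 1748 and 1906. The main limits gave 2657, 2749 and 2936. Median ratio scaling moved the share of called genes that were higher from 44.6% to 51.5% (CM versus IM), from 48.9% to 51.0% (CMT versus CM) and from 42.4% to 53.1% (CMT versus IM), so that higher calls became the larger part in each. No paired analysis was possible because each group is 1 library. Depth limits S100A8 and S100A9 in IM, with 52 and 83 reads, and S100Z and AGER most.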

Other observations

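In the gene order of the Sscrofa11.1 RefSeq table, S100A8, S100A12 and S100A9 follow each other, S100A13, S100A14 and S100A16 form another run, and S100A11 and S100A10 are next to each other beyond a stretch of genes of the skin barrier. The 3 members that rose in CM were thus neighbours, while the adjacent S100A11 and S100A10 had log2 ratios of -1.56 and 0.37 in CM versus IM. NPR1, ILF2, SNAPIN and CHTOP, beside the S100A13 end of the cluster, were not called in CM versus IM or CMT versus CM. NPR1, the gene of a natriuretic peptide receptor, had 3565, 3180.4 and 3039 UQRPKM in IM, CM and CMT. PPGRP-S, the gene next to S100A9, had 1 read in IM, 1 in CM and 0 in CMT. LOC102161828, the gene next to S100A8, had 9, 7 and 2 reads. LOC100152299, between the runs, had 10.8, 51.6 and 0 UQRPKM from 11, 50 and 0 reads, and was chosen after its values were seen. The skin barrier genes LOR, IVL, CRNN, RPTN and TCHH between the runs were listed at 0 in every library.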
